A study of Rattus norvegicus with 9 samples.

Results

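Voltage-gated calcium and sodium channels are the membrane proteins that carry the action potential of the adrenal chromaffin cell and admit the calcium that triggers catecholamine release. Their genes were followed here in the adrenal medulla of rats after repeated or single immobilization. The genes were taken by symbol: those for the pore-forming and auxiliary subunits of calcium channels (symbols beginning Cacna, Cacnb or Cacng) and of sodium channels (Scn followed by a number and a or b), each from array probe sets annotated to that symbol alone. This gave 36 genes of 14217 named on the array, 24 of calcium channels and 12 of sodium channels, measured by 52 probe sets. Where a gene had several probe sets, the one with the highest mean stood for it, and all levels below are log2 of the deposited intensity plus 16. A filter that left out the dimmest 30% of probe sets with 1 symbol (mean level under 8.93) kept 19 of the 36 genes, with Scn4b just inside at 9.19 and Cacng5 just outside at 8.51. The statistics below therefore cover 10633 genes in all, and the 17 dim channel genes are described separately.

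Total RNA of the adrenal medulla was hybridized to 9 Affymetrix rat arrays in 3 groups of 3. The 6XIMO rats were immobilized for 2 hours daily in 6 sessions, the 1XIMO rats for 2 hours in 1 session, and the Control rats were not stressed. The rats were adults of 280 to 320 g, both adrenal medullae were dissected after the last session, and the labels give neither strain nor sex, nor how many animals stand behind each array. The p-values therefore measure the spread between these arrays, which may be technical. Some label fields name mouse or brain and were not followed, since the organism is given as Rattus norvegicus.

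The arrays had been scaled to trimmed means between 2500.6 and 2501, but their medians ran from 592.6 to 1583 in 6XIMO, from 826.3 to 974.7 in 1XIMO and from 910.5 to 1053 in Control. 6XIMO replicate 1 stood apart: its correlation with the other arrays over the genes tested was 0.591 to 0.734, against 0.844 to 0.984 among the other 8. The ratio of the 3′ to the 5′ actin probe sets, a measure of RNA quality, was 231, 6.11 and 8.87 on the 6XIMO arrays, 1.57 to 1.99 on the 1XIMO arrays and 1.45 to 2.15 on the Control arrays. The same ratio for GAPDH was 5.02, 1.79 and 1.87 on the 6XIMO arrays, 1.13 to 1.32 on 1XIMO and 1.10 to 1.41 on Control. The mean level of the spike-in control probe sets was 17.69, 14.27 and 14.67 on the 6XIMO arrays, 12.13 to 13.78 on 1XIMO and 12.34 to 13.31 on Control. The RNA quality and spike-in measures therefore moved with the 6-session group, and their part in the results was not tested. Of the chromaffin cell markers, 4 of 8 rose in 6XIMO against Control (Dbh, Pnmt, Chga and Chgb), where 10% of all genes tested rose. Slc18a1 and Ddc differed by −1.12 and −0.15, and neither passed. The summed intensity of the 8, which the brightest markers carry, was 1078490 to 2417880 in 6XIMO, 305674 to 601235 in 1XIMO and 328798 to 496000 in Control. Of the adrenal cortex markers, 5 of 7 rose, and Cyp11b1 and Nr5a1, at −1.15 and −0.01, did not pass, with summed intensities of 824936 to 1488940 in 6XIMO, 245934 to 582147 in 1XIMO and 269576 to 394804 in Control. No marker of either list was near 0 on any array, the lowest single values being 1390 and 2012. In bulk tissue, a change in the number of cells of a type and a change in RNA per cell cannot be told apart.

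A calcium channel is built on a pore subunit (Cacna1), whose type sets the voltage range and the kinetics, joined by a cytoplasmic beta subunit (Cacnb) and an extracellular alpha2delta subunit (Cacna2d) that bring the pore to the membrane. The gamma genes (Cacng) are named for a muscle channel subunit, but several of them, Cacng2 and Cacng3 included, are known mainly as auxiliary subunits of AMPA-type glutamate receptors. A sodium channel has a single alpha subunit (Scn with the letter a) and smaller beta subunits (Scn with the letter b). In chromaffin cells, L-type channels (Cacna1c, Cacna1d), P/Q-type (Cacna1a), N-type (Cacna1b) and T-type (Cacna1h) pores are known to contribute to calcium entry, and Scn9a and Scn3a are known sodium channel genes of these cells.

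After 6 sessions 3 channel genes were lower than in Control: Cacng3, Cacna1d, an L-type pore, and Cacnb2, a beta subunit. No channel gene was called higher. These 3 of 19 are 15.8% of the channel genes tested, and 25.9% of all genes tested passed the same threshold, a Benjamini-Hochberg adjusted p under 0.05 in limma, with 15.9% lower and 10% higher. At an unadjusted p under 0.05 there were 5 channel genes, against 39.2% of all genes. The arrays of 6XIMO and Control did not overlap for the 3 called genes, where 42.9% of all genes did not overlap, 27.3% with 6XIMO lower. The median difference was −0.15 over the channel genes, which ran from −1.81 to 0.88, and −0.23 over all genes, so the array-wide centre was itself below 0. All genes split into 1065 higher and 1686 lower, and this split turned to 1044 and 945 with quantile normalization and to 459 and 222 with median centring.

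Cacng3, read by 1 probe set, had levels of 8.76, 8.40 and 8.62 in 6XIMO, 10.19, 9.99 and 9.64 in 1XIMO, and 10.60, 10.56 and 10.06 in Control. The 6XIMO arrays all lay below every other array, and this gene had the largest fall among the channel genes tested in that comparison. The means were 8.59 ± 0.18 in 6XIMO and 10.41 ± 0.30 in Control (SD, n = 3 each), a difference of −1.81 ± 0.32 (SE) with a 95% interval of −2.54 to −1.09 and a limma adjusted p of 0.00423. The 6XIMO levels were all under the filter level of 8.93, so the gene passed the filter only through 1XIMO and Control. The call held in 19 of the 20 settings in which the gene was tested and was lost only with a replicate block among the 6 arrays of the 2 groups (limma adjusted p = 0.0732). A filter of 50% left the gene out, and with no filter the limma adjusted p was 0.00707.

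Cacna1d had levels of 9.13, 10.30 and 10.21 in 6XIMO, 11.30, 11.40 and 11.21 in 1XIMO, and 11.12, 11.18 and 10.89 in Control on its brightest probe set. The 6XIMO arrays again lay below all others, with replicate 1 the lowest. The means were 9.88 ± 0.65 in 6XIMO and 11.06 ± 0.15 in Control, a difference of −1.18 ± 0.31 (95% interval −1.88 to −0.49, limma adjusted p 0.0214). A dimmer probe set that did not pass the filter went the other way, with 12.21, 8.97 and 9.59 in 6XIMO, 7.16, 8.33 and 8.33 in 1XIMO, and 6.19, 5.98 and 6.22 in Control. On that probe set every 6XIMO array lay above every Control array, a difference of 4.13, so the direction of Cacna1d RNA depended on the probe set read. A remaining one, also under the filter, differed by 1.26, but its groups overlapped. It read 10.05, 7.80 and 7.47 in 6XIMO and 7.91, 7.93 and 5.69 in Control. On the brightest probe set the call held in 13 of 21 settings and was lost without Control replicate 1, 2 or 3 (adjusted p of 0.0666, 0.0784 and 0.0542), with quantile normalization (0.190), with median centring (0.333) and with only the 2 groups compared (0.0766, or 0.119 with a replicate block). Without 6XIMO replicate 1 under quantile normalization the difference was −0.35 (adjusted p = 0.131).

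Cacnb2 had levels of 12.00, 11.68 and 11.27 in 6XIMO, 11.99, 11.94 and 11.97 in 1XIMO, and 12.48, 12.24 and 12.35 in Control. The 3 6XIMO arrays were all below the Control arrays, and so were the 3 1XIMO arrays. The difference between 6XIMO, at 11.65 ± 0.37, and Control, at 12.36 ± 0.12, was −0.71 ± 0.21 (95% interval −1.18 to −0.24, limma adjusted p 0.0342). The other 2 probe sets of Cacnb2 were lower as well, by −1.16 and −2.53, and both passed when every probe set above the filter was tested by itself (adjusted p of 0.0201 and 0.00657 over 14578 probe sets). The probe set with the largest fall read 7.58, 7.98 and 7.05 in 6XIMO, 10.08, 9.21 and 9.21 in 1XIMO, and 10.59, 9.60 and 10.01 in Control. Its 6XIMO levels were under the filter level of 8.93, so it passed the filter only through 1XIMO and Control. The call of the brightest probe set held in 9 of 21 settings. It was lost with quantile normalization (difference −0.47, adjusted p 0.151), with median centring (0.413), with only the 2 groups compared (0.0980, or 0.136 with a replicate block) and without any single array other than 6XIMO replicate 1 (0.0503 to 0.106). Without 6XIMO replicate 1 the difference was −0.88 (adjusted p 0.00134), where 49.4% of all genes passed.

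**Figure D1:**
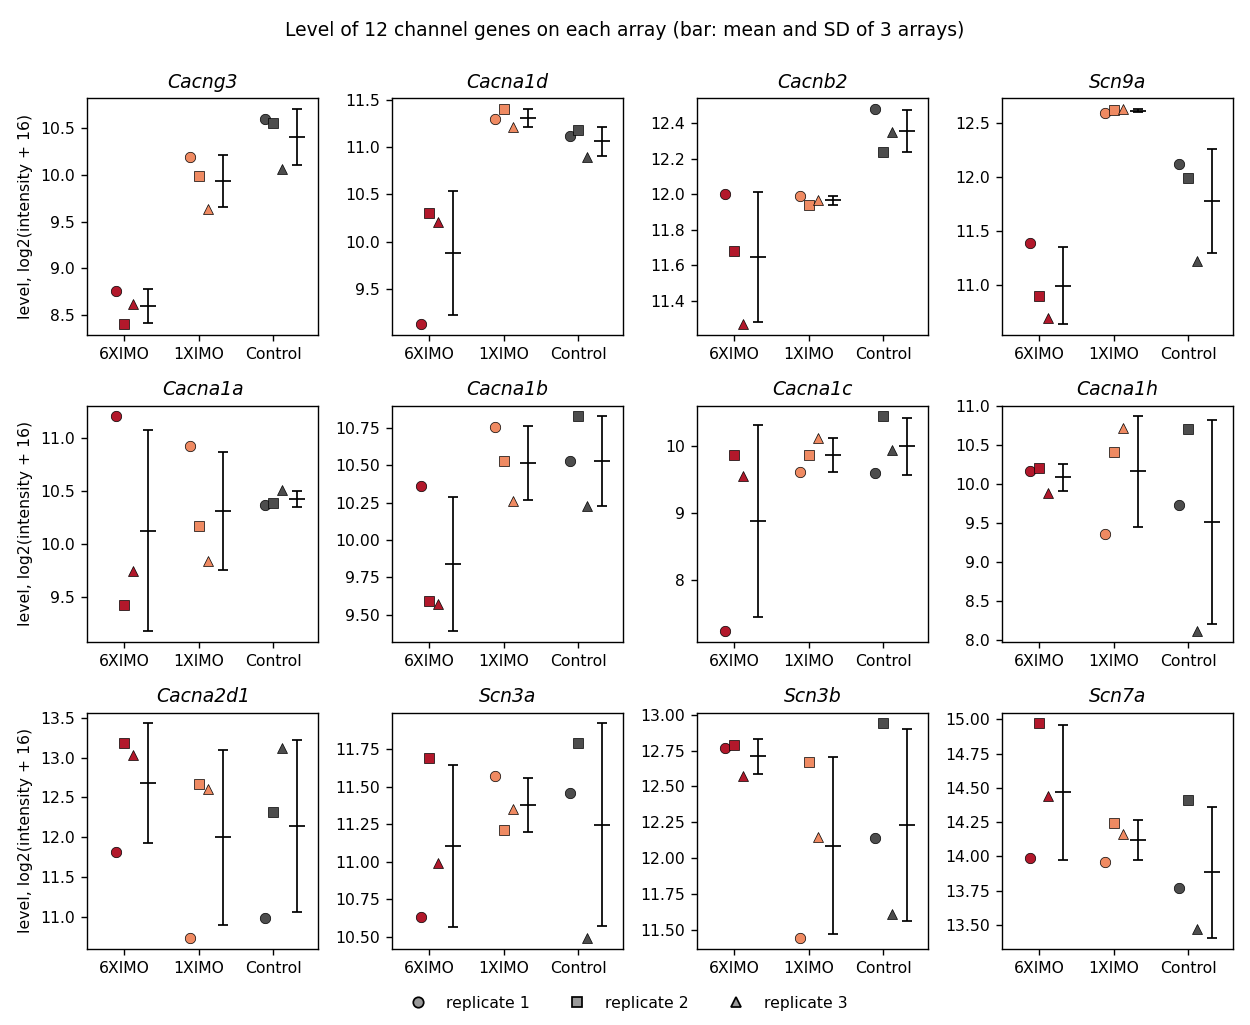
Levels of 12 channel genes, as log2(intensity + 16), on each of the 9 arrays, with 6XIMO at the left of each panel, then 1XIMO and Control; the axes are cut to each gene's own range. Points are arrays, with a shape for each replicate number, and the bars beside them give the mean and SD of 3 arrays. The 3 6XIMO points of Cacng3 (8.40 to 8.76) lie below all 6 other arrays.

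The start regions of these genes and of Scn9a, described below, are shown to place the channel genes in the genome and to let the letters be searched for known elements. RefSeq (assembly GRCr8) gave a start region for 26 of the 36 channel genes, and each line holds the 250 bases before the start, 5′ to 3′ on the gene's strand, with matches to the motifs searched in capitals. These are Cacna1d at chr16:5527550-5527799 on the minus strand, Cacnb2 at 2 starts, chr17:82472965-82473214 and chr17:82596542-82596791 on the plus strand, Cacng3 at chr1:186632312-186632561 on the plus strand and Scn9a at chr3:71701378-71701627 on the minus strand.
Cacng3: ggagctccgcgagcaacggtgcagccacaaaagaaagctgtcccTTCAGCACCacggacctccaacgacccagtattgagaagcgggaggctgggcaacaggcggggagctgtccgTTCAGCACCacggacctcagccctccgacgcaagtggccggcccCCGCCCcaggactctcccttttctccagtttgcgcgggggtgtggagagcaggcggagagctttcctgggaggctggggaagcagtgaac
Cacna1d: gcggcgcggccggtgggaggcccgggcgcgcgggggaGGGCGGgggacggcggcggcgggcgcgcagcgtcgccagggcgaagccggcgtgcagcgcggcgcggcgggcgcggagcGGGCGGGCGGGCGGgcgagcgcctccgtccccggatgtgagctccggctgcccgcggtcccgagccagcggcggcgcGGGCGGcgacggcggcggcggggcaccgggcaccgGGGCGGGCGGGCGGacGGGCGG
Cacnb2, start 1: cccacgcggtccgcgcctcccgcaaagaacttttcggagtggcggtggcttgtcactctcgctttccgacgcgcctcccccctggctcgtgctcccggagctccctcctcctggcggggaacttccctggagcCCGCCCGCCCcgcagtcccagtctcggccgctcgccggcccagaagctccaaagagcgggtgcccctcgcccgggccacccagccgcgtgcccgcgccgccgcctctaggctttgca
Cacnb2, start 2: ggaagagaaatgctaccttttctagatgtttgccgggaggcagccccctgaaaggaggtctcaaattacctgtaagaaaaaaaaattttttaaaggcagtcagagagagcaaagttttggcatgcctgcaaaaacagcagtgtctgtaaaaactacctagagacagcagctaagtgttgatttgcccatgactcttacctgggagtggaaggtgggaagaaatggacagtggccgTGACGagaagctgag
Scn9a: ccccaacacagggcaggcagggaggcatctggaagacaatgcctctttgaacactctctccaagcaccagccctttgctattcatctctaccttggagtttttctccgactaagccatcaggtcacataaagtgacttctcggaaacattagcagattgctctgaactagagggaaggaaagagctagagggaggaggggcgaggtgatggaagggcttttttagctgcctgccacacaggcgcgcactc
Cacng3 held TTCAGCACC, the left part of the RE1 element bound by the neuronal gene repressor REST, 206 and 134 bases before its start. That motif was in 0.305% of 33469 start regions and in no other channel gene's. Cacna1d was 88.8% G and C and held 9 copies of the GGGCGG box known from Sp1, some overlapping, while Scn9a held no match to any motif. The box was in 30.5% of all start regions and in those of 12 of the 26 channel genes. TGACG, the core of the cyclic AMP response element, was in 18.2% of all and in 5 of the 26 genes, Cacnb2 at its start 2 among them. The full element TGACGTCA, which contains that core, was in 1.59% of all and in none of the 26, and AAAGGTCA, known from the Nr4a receptors, was in 1.24% and in none. TGANTCA, the AP-1 element, was in 6.34% of all and in 1 channel gene, Scn3a. The shares of all are per start region, while a channel gene was counted if any of its start regions held the motif, so the 2 are not on the same unit. All motifs were searched on both strands, and a match is only a match of letters.

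The other calcium pores did not pass in 6XIMO against Control. Cacna1b, the N-type pore, had levels of 10.36, 9.59 and 9.57 in 6XIMO, 10.76, 10.53 and 10.26 in 1XIMO, and 10.53, 10.83 and 10.23 in Control. Its 6XIMO arrays overlapped Control through replicate 1, and the difference was −0.69 (95% interval −1.38 to −0.001, limma adjusted p 0.127), or −0.95 without that replicate (adjusted p 0.00933). Without that replicate 7 of 19 channel genes passed in this comparison, and 49.4% of all genes did. Cacna1a, the P/Q-type pore, had 11.20, 9.43 and 9.75 in 6XIMO, 10.92, 10.17 and 9.84 in 1XIMO, and 10.37, 10.39 and 10.51 in Control. The same replicate was the highest of all 9 arrays here, and the difference of −0.30 (95% interval −1.33 to 0.73) was −0.83 without it (limma adjusted p 0.0439) and 0.05 with quantile normalization.

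Cacna1c, the other L-type pore, read 7.24, 9.86 and 9.55 in 6XIMO, 9.61, 9.86 and 10.11 in 1XIMO, and 9.60, 10.44 and 9.94 in Control. A single 6XIMO array was low on this probe set, and the difference of −1.11 had a 95% interval of −2.52 to 0.30 (limma adjusted p 0.221). A second probe set, under the filter and not tested, read 7.18, 7.10 and 8.66 in 6XIMO and 8.57, 8.78 and 8.96 in Control, a difference of −1.12. Cacna1h, the T-type pore, read 10.16, 10.20 and 9.88 in 6XIMO, 9.36, 10.40 and 10.71 in 1XIMO, and 9.73, 10.70 and 8.11 in Control. The Control arrays spread more widely than the groups differed, at 0.57 (95% interval −0.80 to 1.93).

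Among the auxiliary subunits of calcium channels that did not pass, Cacna2d1, the alpha2delta subunit bound by gabapentin, read 11.81, 13.19 and 13.03 in 6XIMO, 10.73, 12.67 and 12.60 in 1XIMO, and 10.98, 12.32 and 13.12 in Control. Replicate 1 was the lowest array of each group, and the difference from Control was 0.53 (95% interval −0.93 to 2.00). The beta subunits Cacnb1 and Cacnb3 had differences of 0.88 (95% interval −0.41 to 2.17) and 0.71 (−0.53 to 1.96), and 6XIMO replicate 1 was the highest array for both, at 12.06 and 11.69. Cacnb1 had a second probe set past the filter, which differed by −0.74 the other way with no overlap between 6XIMO and Control (limma adjusted p 0.133 over probe sets). Cacng2, also known as stargazin, differed by 0.73 (−0.68 to 2.14) and Cacna2d3 by −0.07 (−1.46 to 1.31). The groups overlapped for each gene named here on its brightest probe set.

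Of the sodium channel genes none passed in 6XIMO against Control. Scn9a, an alpha subunit also known from pain-sensing neurons, read 11.39, 10.90 and 10.70 in 6XIMO, 12.60, 12.62 and 12.63 in 1XIMO, and 12.12, 11.99 and 11.23 in Control. The 3 1XIMO arrays were the highest of the 9 and nearly identical, and 6XIMO replicate 1 overlapped the lowest Control array. Against Control the 6XIMO difference was −0.78 ± 0.27 (95% interval −1.39 to −0.18, limma adjusted p 0.0589). It was −0.98 without 6XIMO replicate 1 (adjusted p 0.00657, with 49.4% of all genes called) or −1.06 without Control replicate 3 (adjusted p 0.0286, with 13.7% called).

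Scn3a, the other alpha subunit known from chromaffin cells, read 10.63, 11.69 and 10.99 in 6XIMO, 11.57, 11.21 and 11.35 in 1XIMO, and 11.46, 11.79 and 10.49 in Control, a difference from Control of −0.15 (95% interval −0.97 to 0.67). Scn7a, which codes for a sodium-sensing channel rather than a voltage-gated one, read 13.99, 14.97 and 14.44 in 6XIMO, 13.96, 14.24 and 14.16 in 1XIMO, and 13.77, 14.41 and 13.47 in Control. Its difference of 0.58 (95% interval −0.11 to 1.27) did not pass (limma adjusted p 0.190) and was 0.82 without 6XIMO replicate 1 (adjusted p 0.0226, with 49.4% of all genes called). Scn10a, a channel of sensory neurons, differed by −0.50 (−1.75 to 0.75).

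The beta subunits of the sodium channel, which tune the alpha subunit's gating, did not pass either. Scn2b read 13.24, 11.71 and 11.41 in 6XIMO, 11.12, 11.08 and 11.25 in 1XIMO, and 11.41, 11.71 and 10.76 in Control. All 6XIMO arrays lay above the 1XIMO arrays but met those of Control, and the differences were 0.97 from 1XIMO (95% interval −0.02 to 1.95, limma adjusted p 0.178) and 0.83 from Control (−0.15 to 1.81). Scn3b read 12.77, 12.79 and 12.57 in 6XIMO, 11.44, 12.67 and 12.15 in 1XIMO, and 12.14, 12.94 and 11.61 in Control, a difference from Control of 0.48 (−0.35 to 1.31). Its second probe set read 12.36, 12.49 and 12.36 in 6XIMO, 10.96, 12.23 and 11.64 in 1XIMO, and 10.78, 11.78 and 10.87 in Control, with no overlap between 6XIMO and Control, and passed when probe sets were tested one by one (difference 1.26, limma adjusted p 0.0301). Scn4b differed by −0.38 (−1.75 to 1.00).

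**Figure D2:**
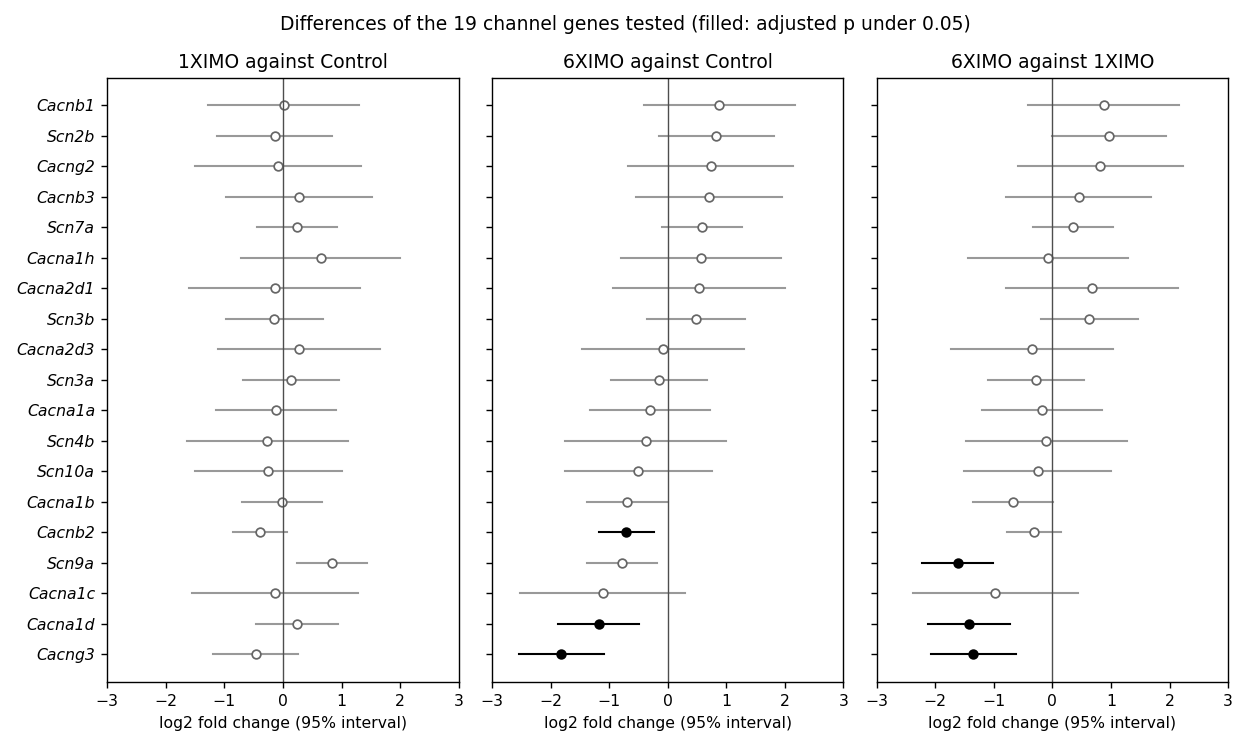
Differences between groups in log2(intensity + 16) for the 19 channel genes tested, in panels for 1XIMO against Control, 6XIMO against Control and 6XIMO against 1XIMO, with genes ordered by their difference in the middle panel. Points are limma estimates, bars are 95% intervals, and filled points passed an adjusted p of 0.05. Filled points lie only to the left of 0, for Cacng3, Cacna1d and Cacnb2 against Control and for Scn9a, Cacna1d and Cacng3 against 1XIMO.

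Comparing 6 sessions with 1 session, 3 channel genes of 19 (15.8%) passed, all lower in 6XIMO: Scn9a, Cacna1d and Cacng3. Of all genes tested 10.8% passed, 5.04% lower and 5.79% higher. At an unadjusted p under 0.05 there were 3 channel genes too, against 29% of all genes. The median difference was −0.18 over the channel genes, which ran from −1.62 to 0.97, and −0.07 over all genes. All genes split into 616 higher and 536 lower, 413 and 251 with quantile normalization and 42 and 18 with median centring. Scn9a averaged 11.00 ± 0.36 in 6XIMO and 12.62 ± 0.01 in 1XIMO (SD, n = 3 each), a difference of −1.62 ± 0.27 (95% interval −2.22 to −1.02, limma adjusted p 0.0111), or −1.82 without 6XIMO replicate 1. Cacna1d differed by −1.42 ± 0.31 on its brightest probe set (adjusted p 0.0226) and by 2.32 in the opposite direction on the dim one with the opposite change against Control, while its remaining probe set differed by −0.25. Cacng3 averaged 8.59 ± 0.18 in 6XIMO and 9.94 ± 0.28 in 1XIMO, a difference of −1.35 ± 0.32 (adjusted p 0.0304). The 6XIMO arrays lay below the 1XIMO arrays without overlap for these 3 genes, and above them for Scn2b, which makes 4 of 19 genes without overlap against 34.9% of all genes. Cacnb2 did not pass on its brightest probe set, but its probe set with the largest fall against Control passed here too (difference −1.96, adjusted p 0.0347 over probe sets). The call of Scn9a held in 16 of 21 settings and was lost without 1XIMO replicate 2 or 3 (adjusted p of 0.0536 and 0.0573), with median centring (0.0721) and with only the 2 groups compared (0.0527, or 0.144 with a replicate block). That of Cacna1d held in 14 of 21 and was lost without any single 1XIMO array (0.0700 to 0.0923), with quantile normalization (0.130), with median centring (0.282) and with only the 2 groups (0.0907, or 0.168 with a replicate block). That of Cacng3 held in 8 of 20 and was lost without any single array other than 6XIMO replicate 1 (0.0555 to 0.117), with quantile normalization (0.0684), with median centring (0.114) and with only the 2 groups (0.131, or 0.224 with a replicate block). The comparisons of 6XIMO with Control and with 1XIMO share the 6XIMO arrays.

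After 1 session, 0 of 19 channel genes passed against Control in limma, where 10.2% of all genes did (4.47% higher and 5.71% lower), and 1 channel gene, Scn9a, had an unadjusted p under 0.05, where 23.6% of all genes did. The median difference was −0.08 over the channel genes, which ran from −0.46 to 0.84, and −0.13 over all genes. All genes split into 475 higher and 607 lower, 467 and 357 with quantile normalization and 154 and 65 with median centring. The 2 groups did not overlap for Scn9a and Cacna1d, both higher in 1XIMO, and Cacnb2, lower in 1XIMO, 3 of 19 against 44.3% of all genes. Scn9a averaged 12.62 ± 0.01 in 1XIMO and 11.78 ± 0.48 in Control, a difference of 0.84 ± 0.27 (95% interval 0.23 to 1.44, limma adjusted p 0.0836). Cacnb2 averaged 11.97 ± 0.03 in 1XIMO and 12.36 ± 0.12 in Control, a difference of −0.39 ± 0.21 (adjusted p 0.312). Scn9a and Cacnb2 both passed when only the 1XIMO and Control arrays were fitted (limma adjusted p of 0.0205 and 0.0417), where 30% of all genes passed. Same-numbered 1XIMO and Control arrays tended to deviate together. With the replicate number as a block among those 6 arrays the adjusted p-values were 0.00501 and 0.0213, where 40.2% of all genes passed. Without 6XIMO replicate 1, which shares only the estimate of the spread, Scn9a passed as well (adjusted p 0.0128), where 31.9% of all genes did.

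None of the remaining channels known from chromaffin cells passed in 1XIMO against Control. The pore genes Cacna1a, Cacna1b and Cacna1c differed by −0.12 (95% interval −1.15 to 0.91), −0.02 (−0.71 to 0.67) and −0.14 (−1.55 to 1.27). Cacna1d differed by 0.24 (−0.45 to 0.94) on its brightest probe set, and by 1.81 and 1.51, without overlap, on the other 2, which were under the filter and not tested. Cacna1h differed by 0.64 (−0.72 to 2.01) and Cacna2d1 by −0.14 (−1.61 to 1.32). Cacnb1 differed by 0.01 (−1.28 to 1.30) and Cacnb3 by 0.27 (−0.98 to 1.51). Scn3a differed by 0.13 (−0.69 to 0.95), Scn2b by −0.14 (−1.12 to 0.84) and Scn3b by −0.15 (−0.98 to 0.69). These intervals are wide enough to hold a difference of either sign for every gene in this paragraph, on the probe set that was tested.

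Several probe sets of 1 gene often disagreed. Of the 11 channel genes with more than 1, all probe sets went 1 way in 5 for 6XIMO against Control, in 5 for 6XIMO against 1XIMO and in 8 for 1XIMO against Control. Among the 4 genes with several probe sets past the filter, those numbers were 3, 2 and 2. The probe sets of Cacnb2 went together after 6 sessions, and those of Cacna1d and Cacnb1 did not. In 6XIMO against Control the dimmer probe sets of Cacna1b, Cacna1i and Scn2b, all under the filter, differed by 0.22, 0.81 and −0.98, against −0.69, −2.09 and 0.83 on the brightest, and 1 of the 5 probe sets of Cacna1a (0.48) went against the other 4.

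**Figure D3:**
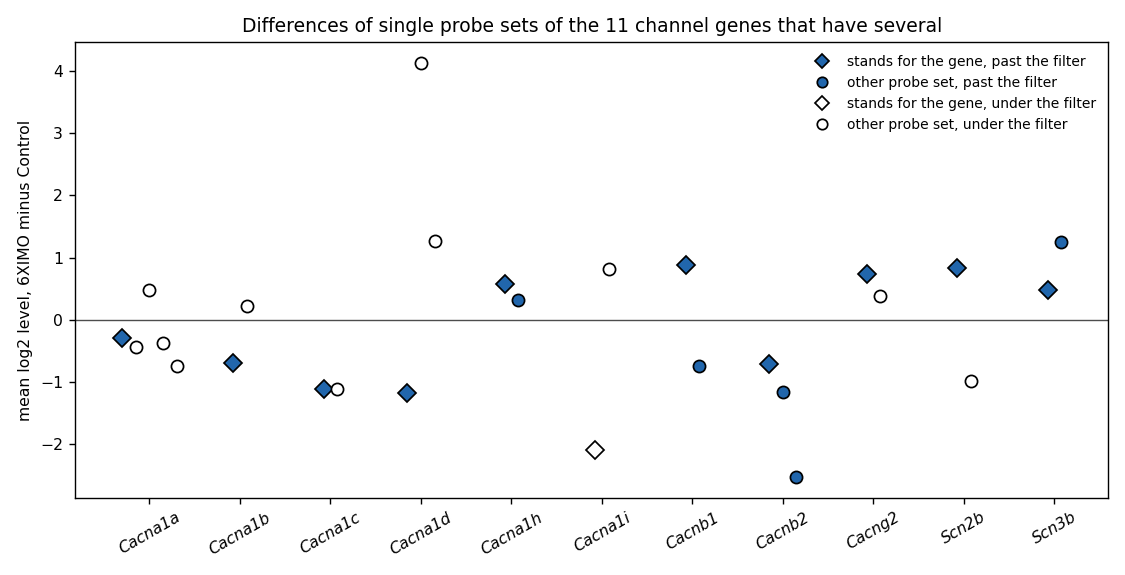
Difference in mean log2(intensity + 16), 6XIMO minus Control, of every probe set of the 11 channel genes that have several. Diamonds are the probe sets that stood for the gene, circles the others, and filled symbols passed the filter. The 3 probe sets of Cacnb2 are all lower in 6XIMO than in Control, while those of Cacna1d go both ways (differences of −1.18, 1.26 and 4.13).

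Among the 17 channel genes under the filter, 1 array often had the highest value. 6XIMO replicate 1 was the highest of the 9 arrays in 10 of the 17 (58.8%), against 62.4% of all genes under the filter. Among the 19 that passed it was the highest in 7 (36.8%), against 28.2% of all genes tested, and the highest or the lowest in 47.4%, against 62.9% of all genes tested. Scn1a, an alpha subunit of the central nervous system, ran from 4.76 to 11.53 with a median of 6.68, and its highest value was 7.93 without that array. Scn2a and Scn8a, known alpha subunits of neurons, ran from 6.86 to 10.39 and from 4.80 to 8.85, and the fourth beta subunit, Cacnb4, from 4.46 to 7.65. The pores Cacna1e (R-type), Cacna1f (known from the retina), Cacna1g (T-type) and Cacna1s (known from skeletal muscle) had medians of 7.03, 5.69, 6.07 and 5.92. Of the gamma genes, 6 lay under the filter, Cacng1, Cacng4, Cacng5, Cacng6, Cacng7 and Cacng8, with medians from 5.25 to 8.55. The muscle sodium channel gene Scn4a had a median of 6.37. These genes were not tested in the filtered fit.

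Of the 17 dim genes, 3 separated 6XIMO from Control without overlap, Scn11a, Cacna1f and Cacna1i, against 18% of all genes under the filter, and 2 separated 6XIMO from 1XIMO, Scn11a and Cacna1f, against 15.8%. Scn11a, an alpha subunit of pain-sensing neurons, read 9.74, 8.23 and 9.38 in 6XIMO, 5.63, 5.93 and 5.80 in 1XIMO, and 5.80, 5.54 and 7.18 in Control. All 6XIMO arrays were above all others, and with no filter the difference was 2.94 ± 0.68 from Control (limma adjusted p 0.0154 over 14217 genes) and 3.33 ± 0.68 from 1XIMO (adjusted p 0.0229). In that unfiltered fit 18% and 6.48% of all genes passed in these comparisons, and Scn11a was the only dim channel gene that did. Cacna1f, the pore known from the retina, read 6.97, 6.40 and 7.20 in 6XIMO, 6.21, 5.01 and 5.11 in 1XIMO, and 5.40, 5.69 and 5.46 in Control, and its differences of 1.34 from Control and 1.41 from 1XIMO did not pass (limma adjusted p 0.181 and 0.211). Cacna1i, a T-type pore, read 8.41, 6.44 and 5.90 in 6XIMO, 9.64, 8.32 and 8.45 in 1XIMO, and 9.28, 9.01 and 8.72 in Control. Its 6XIMO arrays lay below Control without overlap but met those of 1XIMO, and the difference of −2.09 did not pass (limma adjusted p 0.0670). The 3 genes were singled out after their values were seen.

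Genes that act on the channels or on the same calcium moved in a few cases. Of the regulators of the channels, 8 of 14 listed were tested, and 2 rose and 0 fell in 6XIMO against Control, 0 rose and 1 fell in 6XIMO against 1XIMO, and 2 rose and 0 fell in 1XIMO against Control. Of all genes tested 10% rose in 6XIMO against Control, 5.04% fell in 6XIMO against 1XIMO and 4.47% rose in 1XIMO against Control, and the lists that follow are read beside 25.9%, 10.8% and 10.2% called in either direction. Gem, a small GTPase that inhibits calcium channels through the beta subunit, averaged 12.43 in 6XIMO, 14.21 in 1XIMO and 10.76 in Control. Its differences were 1.68 ± 0.25 in 6XIMO against Control (limma adjusted p 0.00195), −1.78 ± 0.25 in 6XIMO against 1XIMO (adjusted p 0.00925) and 3.46 ± 0.25 in 1XIMO against Control (adjusted p 5.19e-05). Cabp1, a calcium-binding protein that modulates the pores, rose by 1.79 ± 0.49 in 6XIMO against Control (adjusted p 0.0262), and Stac, an adaptor of L-type channels, by 1.04 ± 0.27 in 1XIMO against Control (adjusted p 0.0351).

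Of the partners of sodium channels, 4 of 7 listed were tested, and 1 fell in 6XIMO against Control, Fgf13, an intracellular protein that binds the alpha subunit's tail, by −1.38 ± 0.43 (limma adjusted p 0.0408), with 0 called in the other comparisons. Of the sodium leak channel genes, 3 of 3 were tested, and Unc79, an auxiliary subunit, rose by 1.03 ± 0.26 in 6XIMO against 1XIMO (adjusted p 0.0346), with 0 called against Control. Of the genes of calcium release and removal, 13 of 17 listed were tested. Atp2b1, a calcium pump of the plasma membrane, rose by 1.95 ± 0.22 in 6XIMO against Control (adjusted p 0.000487) and by 1.73 ± 0.22 in 1XIMO against Control (adjusted p 0.00111), and none of the others passed in any comparison. The medians of these 4 lists in 6XIMO against Control were 0.46, −0.14, −0.65 and −0.02.

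Markers of other cell types in the tissue are read beside all genes tested. Of these, 25.9% passed in 6XIMO against Control, 10.8% in 6XIMO against 1XIMO and 10.2% in 1XIMO against Control. In the same comparisons 42.9%, 34.9% and 44.3% of all genes did not overlap. Of the 4 markers tested for Schwann cells and glia, S100b fell in 6XIMO against Control, and the summed intensity of the list was 11558.6 to 15480.8 in 6XIMO, 11660.6 to 13277.4 in 1XIMO and 10184.9 to 13386.3 in Control. None of 5 neuron markers passed in any comparison, nor did any of 3 leukocyte markers. Of the 3 endothelial markers tested Kdr fell in 6XIMO against Control, and of the 6 muscle markers tested Actn2 rose in 6XIMO against both other groups and Acta2 fell against 1XIMO. The summed intensity of the leukocyte markers was 40463.4 to 53177.4 in 6XIMO, 34042 to 37368.7 in 1XIMO and 32442.1 to 37520.1 in Control, above both other groups in 6XIMO. That of the endothelial markers was 15901.6 to 18836.5 in 6XIMO, 15493.8 to 17748.1 in 1XIMO and 19141.4 to 27471 in Control, lower without overlap in both stressed groups than in Control. That of the muscle markers was 16281.5 to 36211.9 in 6XIMO, 28223.3 to 29423.5 in 1XIMO and 15842.7 to 19076.1 in Control, higher without overlap in 1XIMO than in Control. The neuron sums overlapped, at 30735.1 to 41932.8 in 6XIMO, 35163.7 to 49408.9 in 1XIMO and 26087 to 41838.7 in Control. The brightest marker carries most of the leukocyte and endothelial sums. In 6XIMO against Control the brightest leukocyte marker, Cd74, differed by 0.53, while Ptprc and Cd68 differed by −0.61 and −1.13. The brightest endothelial marker, Kdr, differed by −0.79, while Pecam1 and Vwf differed by 0.29 and 0.43. Of these genes only Kdr passed. The part of these marker changes in the channel results was not tested.

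**Figure D4:**
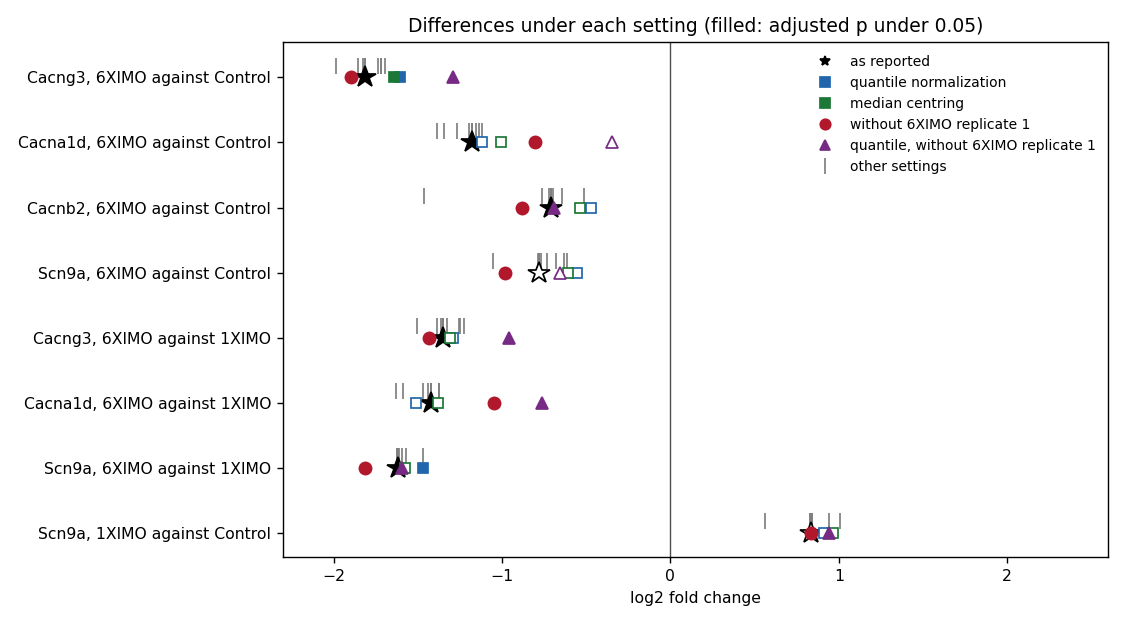
Differences in log2(intensity + 16) for Cacng3, Cacna1d, Cacnb2 and Scn9a under the 21 settings tried (20 for Cacng3). The star is the value as reported, the coloured symbols are settings that change scaling or leave out 6XIMO replicate 1, filled where the adjusted p was under 0.05, and the grey ticks are the other settings, with no mark for the call. Every setting gave the same sign in each comparison shown, though several settings cannot change a difference. The value of Cacna1d in 6XIMO against Control ran from −1.39 to −0.35.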

How the data were processed

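The series holds 9 Affymetrix arrays of rat adrenal medulla RNA, 3 per group. The deposited table gives 1 linear intensity per probe set and array, and per the labels the labelling and arrays were run by the manufacturer. How probes were summarised, background-corrected and scaled is not given in the sources used here, and no detection calls were used. No array was left out or imputed. Of 31099 probe sets, 57 are controls, 20826 carry 1 gene symbol, 436 several and 9780 none; all 36 channel genes matched the RefSeq gene table by gene ID. Levels are log2(intensity + 16). All 9 arrays entered 1 fit (limma 3.58.1 in R 4.3.3, lmFit and eBayes with a trend, 6 residual degrees of freedom, two-sided, Benjamini-Hochberg adjustment over all genes tested); the fit was tested on simulated data. The number of arrays limits the precision, and no scan batch is given.

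The members and lists were chosen with earlier results of these data known. Named are all members past the threshold, the channels known from chromaffin cells, and genes whose probe sets disagree; other lists are named where past the threshold. Deviations from the group means of same-numbered 1XIMO and Control arrays correlated at 0.521, 0.382 and 0.242. 1XIMO replicate 3 correlated more with Control replicate 2, at 0.280, so the numbers may pair those arrays, but this is not settled. The same-numbered pairs with 6XIMO gave 0.029 to 0.150. The main fit treated no arrays as paired, while the replicate block settings blocked the 6XIMO arrays by number as well. Any pairing comes from the same data as the block fits, since the labels give numbers only. The alternatives were other filters, pseudocounts, scalings and probe-set rules, only the groups compared, a replicate block and leaving out each array.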

Additional observations from a re-analysis of the deposited data

Results flagged for a closer look

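The responses of 3 channel genes to 6 sessions and to 1 session differed in limma, as tested by 6XIMO against 1XIMO, though none of the 3 calls held with median centring, with only the 2 groups compared, or without 1XIMO replicate 2 or 3. Scn9a differed from Control by −0.78 after 6 sessions and by 0.84 after 1, neither past the threshold, and its response to 6 sessions minus that to 1 was −1.62 (log2, adjusted p 0.0111). Cacna1d gave −1.42 (adjusted p 0.0226) on its brightest probe set, and a dimmer probe set differed by 2.32 the other way. Cacng3 gave −1.35 (adjusted p 0.0304), from differences against Control of −1.81 after 6 sessions and −0.46 after 1. The 6XIMO arrays were those with high 3′ to 5′ actin ratios (6.11 to 231), and the part of RNA quality in these differences was not tested.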

How the results depend on the processing

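Over 21 settings Scn9a, Cacna1d and Cacnb2 kept their sign in all 3 comparisons, as did Cacng3 over the 20 in which it was tested, and no call of a channel gene changed its sign in any setting. Several settings, among them the replicate block, only the 2 groups compared and leaving out an array of the third group, cannot change a difference or its sign. The mean of all probe sets took only those past the filter, so the dimmer probe sets of Cacna1d never entered it. The counts moved. Channel genes called were 3 in 6XIMO against Control, 1 with quantile normalization, with median centring or with only the 2 groups compared, and 1 to 7 without single arrays, the 7 without 6XIMO replicate 1 and the 1 without Control replicate 1 or 2. They were 3 in 6XIMO against 1XIMO, 1 with quantile normalization, 0 with median centring or only the 2 groups (unadjusted p under 0.05 in limma: 6 and 3, with 1594 and 2383 of all 10633 genes), and 0 to 5 without single arrays, the 5 without 6XIMO replicate 1, the 1 without 1XIMO replicate 1 and the 0 without 1XIMO replicate 2 or 3 (unadjusted: 4 and 3, with 2307 and 2292 of all genes). They were 0 in 1XIMO against Control, 2 with only the 2 groups, 1 with quantile normalization without 6XIMO replicate 1, and 0 to 1 without single arrays. All genes called were 2751 in 6XIMO against Control, 681 with median centring, 1574 with only the 2 groups and 1458 to 5256 without single arrays. They were 1152 in 6XIMO against 1XIMO, 664 with quantile normalization, 60 with median centring, 3 with only the 2 groups, 2432 with quantile normalization without 6XIMO replicate 1 and 0 to 3543 without single arrays. They were 1082 in 1XIMO against Control, 219 with median centring, 3187 with only the 2 groups, 3409 with quantile normalization without 6XIMO replicate 1 and 379 to 3393 without single arrays. Leaving out arrays or groups also leaves fewer samples for the spread. The counts rose in some of these settings and fell in others, and the causes were not tested. A replicate block over all 9 arrays changed the calls of channel genes only by adding Scn9a in 6XIMO against Control (adjusted p 0.0423). Within the 2 groups compared, the replicate block, a setting chosen after seeing the data, called 0 channel genes in 6XIMO against Control (538 of all genes, 4 channel genes and 3171 of all genes at an unadjusted p under 0.05), 0 in 6XIMO against 1XIMO (0 of all genes, 4 channel genes and 2088 of all genes at an unadjusted p under 0.05) and 2 in 1XIMO against Control (4277 of all genes). Across the 3 comparisons 7 of 9 arrays deviated most like an array of their own number. A filter over all probe sets, also chosen after seeing the data, gave the same channel gene counts. The 3 arrays a group limit the precision, and with no detection calls it is not known which dim probe sets lay above background.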
